A study of Mus musculus with 12 samples.

Results

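The fibrillar and type VI collagen genes were followed in neuron cultures derived from mouse embryonic stem cells. The 8 genes are Col1a1, Col1a2, Col3a1, Col5a1, Col5a2, Col6a1, Col6a2 and Col6a3, out of 33560 genes with counts. They were taken by symbol, and all 8 symbols mapped to an Ensembl gene of the tables. The family was chosen by its read counts in these same 12 libraries, that is, with the difference between genotypes and the correlation among the genes already known. Those values are therefore given as descriptions, and no support is drawn from them.

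The 12 libraries held polyA RNA of cultures labelled glutamatergic neurons at day 21 in vitro. The 3 wild-type (WT) cell lines and the 3 lines lacking the microexon of Daam1 (Daam1-MIC_KO, here KO) each gave 1 library after vehicle (water) and 1 after 10 µM of the ROCK inhibitor Y-27632, both for 2 h. This makes 4 groups of 3 libraries: WT vehicle, KO vehicle, WT inhibitor and KO inhibitor. A microexon is a very short exon spliced in mainly in neurons, Daam1 is a formin that builds actin filaments, and ROCK is the kinase through which RhoA raises actomyosin tension. The lines of each genotype are numbered 1 to 3, and line 1 of WT and line 1 of KO are different lines. Nothing in the labels says whether the lines of a genotype are independent clones, so p-values measure the spread between these lines only. The series text speaks of hippocampus of adult mice, whereas every sample label names cultured neurons, and the sample labels were followed.

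Fibrillar collagens are the main tensile proteins of connective tissue. Types I and III form the bulk of most fibrils, and type V is built into the fibril core and limits its width. Type VI forms beaded microfilaments next to cells, assembled from 3 different chains. In nervous tissue these collagens are made mostly by meninges, perivascular fibroblasts and the sheaths of peripheral nerves, and little by neurons. RNA was measured over whole cultures, so fewer cells of a type and less RNA per cell cannot be told apart.

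Total counts were 23253566 to 35012561 per library, and the 8 collagen genes together took 0.00751% to 0.144% of them. Counts of Daam1 cover the whole gene and do not check the microexon deletion: its level was 154 to 183 CPM (library-size normalised counts, scaled by TMM factors) in WT vehicle and 155 to 182 CPM in KO vehicle. Among glutamatergic markers Slc17a6, a vesicular glutamate transporter, had a median of 279 CPM in WT, whereas Slc17a7, the transporter typical of cortical and hippocampal projection neurons, had 0.944 CPM. One library stood apart: KO inhibitor line 3 lay at 163 on the first principal component of all tested genes, against -73.8 to 68.1 for the other 11. Its 10 glutamatergic markers summed to 409 CPM, against 1500 to 2190 CPM elsewhere. WT vehicle line 2 and WT inhibitor line 3 were the next highest on this component, at 68.1 and 60.3. At its other end lay KO inhibitor line 2 (-73.8), KO vehicle line 2 (-71.4) and KO vehicle line 3 (-61.8). For KO against WT, the medians of the 8 genes, of the collagen pathway lists and of the fibroblast markers are also given without one of these libraries wherever that moved them by over 1.5 times or turned their direction.

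In mouse build GRCm38 (GENCODE M21 annotation), Col3a1 (ENSMUSG00000026043) lies at chr1:45311538-45349706 on the plus strand. Col5a2 (ENSMUSG00000026042) lies on the minus strand at chr1:45374321-45503282, 24.6 kb away with 0 protein-coding genes between them. Col6a2 (ENSMUSG00000020241) and Col6a1 (ENSMUSG00000001119) are also neighbours, at chr10:76595762-76623630 and chr10:76708792-76726168, 85.2 kb apart and both on the minus strand. The other genes are Col1a1 (ENSMUSG00000001506, chr11:94936224-94953042, plus strand), Col1a2 (ENSMUSG00000029661, chr6:4504814-4541544, plus strand), Col5a1 (ENSMUSG00000026837, chr2:27886425-28039514, plus strand) and Col6a3 (ENSMUSG00000048126, chr1:90765923-90843971, minus strand). Of genes overlapping a collagen gene on the opposite strand, 2810430I11Rik within Col5a1 reached at most 10 counts in a library.

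The proximal promoters are shown because the genes varied together across the WT libraries. RefSeq windows (GRCm38.p6) matched 6 of the 8 genes. The 4 stretches below hold the 150 bases upstream of a RefSeq start, read 5′ to 3′ on the gene's strand, and overlap no annotated exon. Capitals mark TATAAA or CCAAT.
Col3a1, chr1:45311388-45311537, plus strand: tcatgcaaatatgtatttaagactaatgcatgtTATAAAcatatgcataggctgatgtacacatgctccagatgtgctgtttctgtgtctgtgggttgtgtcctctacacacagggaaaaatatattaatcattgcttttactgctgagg
Col5a1, chr2:27886275-27886424, plus strand: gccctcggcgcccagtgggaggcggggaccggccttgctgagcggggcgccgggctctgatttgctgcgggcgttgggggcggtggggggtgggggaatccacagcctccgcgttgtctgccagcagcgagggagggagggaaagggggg
Col6a2, chr10:76623631-76623780, minus strand: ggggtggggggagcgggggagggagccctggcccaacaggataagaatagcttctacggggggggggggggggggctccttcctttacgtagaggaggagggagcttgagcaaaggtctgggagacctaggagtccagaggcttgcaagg
Col6a3, chr1:90843972-90844121, minus strand: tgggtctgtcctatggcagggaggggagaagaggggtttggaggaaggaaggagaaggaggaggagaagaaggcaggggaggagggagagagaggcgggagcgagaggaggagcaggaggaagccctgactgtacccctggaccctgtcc

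Base composition differed among the 4: G and C made up 37.3% of the Col3a1 stretch, 62.7% for Col6a3, 64.7% for Col6a2 and 74.7% for Col5a1, against a median of 54.0% over 32851 promoter windows. Motifs were searched on both strands of the 250 bases upstream. TATAAA occurred in 1 of the 6 genes, Col3a1, and in 12.4% of all windows. The GC box GGGCGG occurred in Col1a2, Col5a1 and Col6a2 (4 of 7 windows), against 32.7% of all windows. CAGAC, the short element bound by SMAD proteins, occurred in 5 of 6 genes (5 of 7 windows), against 42.2% of all windows. CCAAT occurred only in Col1a2 among the 6 (33.8% of all), the AP-1 motif TGANTCA only in Col6a1 (6.75%), and the TEAD motif GGAATG in Col3a1 and Col6a2 (12.6%). The TEAD match of Col6a2 lay only in its window not printed. Matches are letters only, and none of these motifs was held by all 6 genes.

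Compared per length by cRPKM, the deposited RPKM value corrected for mappable positions, the order of the 8 genes differed between genotypes. In WT, Col1a1 or Col3a1 was the highest of the 8 in every library (4 and 2 libraries), with medians over 6 libraries of 23.5 and 20.5 cRPKM. Col1a2 (12 cRPKM) and Col6a1 (10.6 cRPKM) took the next places in all 6, followed by Col5a1 (6.14) and Col6a2 (4.95), then Col6a3 (1.80) and Col5a2 (1.04). In KO, Col6a1 was the highest of the 8 in 5 of 6 libraries, with a median of 6.42 cRPKM, while Col3a1 and Col1a1 had 3.58 and 3.50 cRPKM. Within the pairs Col1a1 and Col3a1, Col1a2 and Col6a1, and Col5a1 and Col6a2, the order changed between WT libraries. No test was made of differences between genes.

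All 8 genes were lower in KO than in WT cultures, in vehicle and in inhibitor. Their summed level was 155 to 1480 CPM in the 6 WT libraries and 75.5 to 151 CPM in the 6 KO libraries, which do not overlap. The gap is narrow, since WT vehicle line 3 (155 CPM) and KO vehicle line 3 (151 CPM) lie side by side. Between the highest and lowest WT library, single genes differed 5.66-fold (Col6a3) to 13.1-fold (Col1a2). Every gene was highest in WT vehicle line 2, and among WT libraries lowest in WT vehicle line 3.

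**Figure D1:**
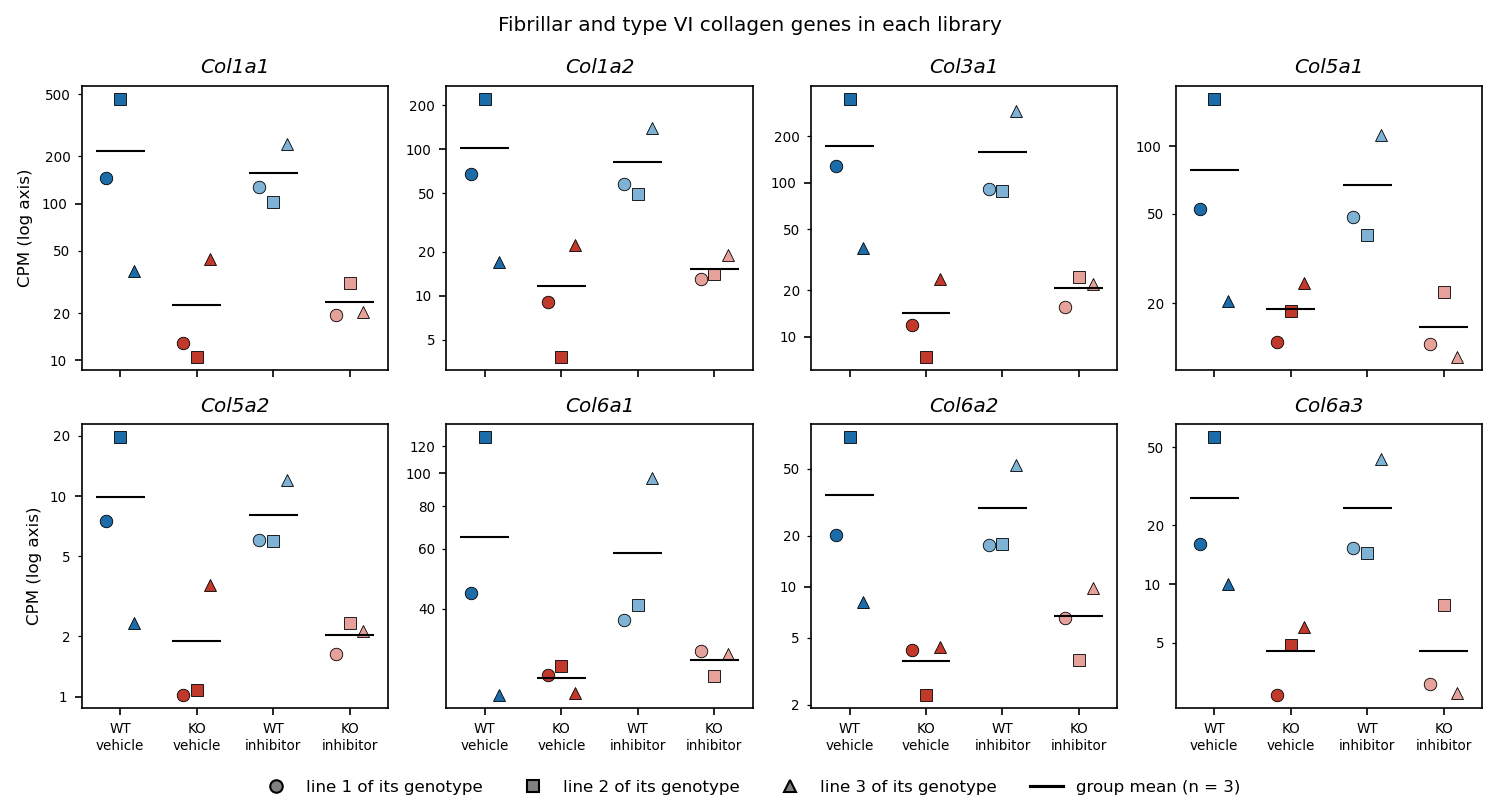
CPM of each gene (vertical log axis) in the 12 libraries by group; colours mark the group, symbols mark the line, and horizontal bars mark the mean of 3 libraries. WT vehicle line 2 (square) is the highest point in all 8 panels, and the KO points of Col6a1 lie within the range of 22.6 to 30.1 CPM.

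Col1a1 encodes the chain that supplies 2 of the 3 strands of type I collagen. In WT vehicle lines 1, 2 and 3 it stood at 145, 466 and 37.3 CPM, and in the inhibitor libraries of these lines at 128, 103 and 241 CPM. In KO it stood at 12.8, 10.5 and 44.0 CPM in vehicle and at 19.5, 31.1 and 20.3 CPM in inhibitor. KO vehicle line 3 exceeded WT vehicle line 3, so the vehicle groups overlap, and the inhibitor groups do not. The fitted difference between KO and WT on the log2 scale was -3.27 ± 0.88 (SE) in vehicle and -2.73 ± 0.86 in inhibitor.

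Col1a2 encodes the remaining strand of type I collagen. Its WT values were 67.8, 221 and 16.9 CPM in vehicle and 57.6, 49.8 and 139 CPM in inhibitor. KO values were 9.04, 3.81 and 22.2 CPM in vehicle and 13.0, 14.1 and 18.8 CPM in inhibitor. Here too KO vehicle line 3 was above WT vehicle line 3. The fitted log2 difference was -3.12 ± 0.92 in vehicle and -2.43 ± 0.89 in inhibitor.

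Col3a1 encodes type III collagen, which forms fibrils together with type I. It had the most negative fitted difference of the 8 in vehicle and in inhibitor. WT cultures gave 128, 351 and 37.8 CPM in vehicle and 91.1, 88.2 and 293 CPM in inhibitor. KO cultures gave 11.9, 7.40 and 23.6 CPM in vehicle and 15.7, 24.3 and 22.0 CPM in inhibitor. All 6 WT libraries lay above all 6 KO libraries, the nearest pair being 37.8 and 24.3 CPM. KO differed from WT by a fitted log2 value of -3.59 ± 0.83 in vehicle and -2.93 ± 0.81 in inhibitor.

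Col5a1 encodes the main chain of type V collagen, which is needed to start a fibril. WT libraries held 52.6, 163 and 20.5 CPM in vehicle and 48.4, 40.1 and 113 CPM in inhibitor. KO libraries held 13.4, 18.5 and 24.5 CPM in vehicle and 13.1, 22.3 and 11.5 CPM in inhibitor. WT vehicle line 3 fell inside the KO range, and the other 5 WT libraries were above it. On the log2 scale the fit gave -2.07 ± 0.69 in vehicle and -2.10 ± 0.69 in inhibitor.

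Col5a2, the other type V chain measured, had the lowest level per length of the 8 in all 6 WT libraries. WT values were 7.54, 19.7 and 2.32 CPM in vehicle and 6.05, 5.99 and 12 CPM in inhibitor. The KO values, 1.02, 1.08 and 3.61 CPM in vehicle and 1.63, 2.34 and 2.13 CPM in inhibitor, rest on 25 to 92 counts a library. KO vehicle line 3 was above WT vehicle line 3. The fitted log2 difference was -2.37 ± 0.76 in vehicle and -1.98 ± 0.74 in inhibitor.

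Col6a1, a chain of type VI collagen, had the smallest difference of the 8. WT libraries gave 44.5, 128 and 22.3 CPM in vehicle and 37.0, 41.1 and 97.2 CPM in inhibitor. KO libraries gave 25.5, 27.1 and 22.6 CPM in vehicle and 30.1, 25.3 and 29.4 CPM in inhibitor. The highest and lowest KO libraries differed 1.33-fold, against 2.14-fold to 5.83-fold for the other 7 genes, and all 3 KO vehicle libraries were above WT vehicle line 3. The fit gave log2 differences of -1.37 ± 0.57 in vehicle and -1.05 ± 0.56 in inhibitor.

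Col6a2, which pairs with Col6a1 in type VI collagen, had a larger difference. WT values were 20.3, 77.2 and 8.16 CPM in vehicle and 17.7, 17.9 and 52.6 CPM in inhibitor. KO values were 4.24, 2.29 and 4.39 CPM in vehicle and 6.56, 3.70 and 9.80 CPM in inhibitor. The groups did not overlap within vehicle or within inhibitor, although KO inhibitor line 3 exceeded WT vehicle line 3. The fitted log2 difference was -3.27 ± 0.83 in vehicle and -2.14 ± 0.79 in inhibitor.

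Col6a3 encodes the long remaining chain of type VI collagen, whose end is cut off as the peptide endotrophin. WT libraries held 16.0, 56.5 and 9.99 CPM in vehicle and 15.2, 14.4 and 43.7 CPM in inhibitor. KO libraries held 2.71, 4.85 and 6.0 CPM in vehicle and 3.09, 7.84 and 2.77 CPM in inhibitor. As for Col3a1, every WT library was above every KO library. KO differed from WT by a fitted log2 value of -2.61 ± 0.75 in vehicle and -2.42 ± 0.75 in inhibitor.

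The median log2 difference of the 8 genes was -2.86 in vehicle and -2.28 in inhibitor, while the median of all 15443 genes tested was -0.01 and 0. No gene passed an adjusted p of 0.05 in edgeR's quasi-likelihood test in vehicle or inhibitor (0.00% of genes tested and 0 of 8 collagen genes in each). All 8 genes had an edgeR Benjamini-Hochberg adjusted p of 0.999 in vehicle and 0.856 in inhibitor, with 3 libraries in each group. At an unadjusted p below 0.05, 8 of 8 were lower in vehicle and 7 of 8, without Col6a1, in inhibitor, against 1.43% and 2.18% of all genes tested. The libraries of the groups did not overlap, with KO lower, for 3 of 8 genes in vehicle (4.90% of all genes) and 8 of 8 in inhibitor (7.03%). Since the family was chosen with these differences known, the counts describe it and are not evidence for a difference.

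Without WT vehicle line 2 the vehicle median was -1.68, and without KO vehicle line 3 it was -3.32. Without WT inhibitor line 3 the inhibitor median was -1.63, and without KO inhibitor line 3, the library that stood apart, it was -2.34. DESeq2 called 11 genes in vehicle (0.0712% of genes tested), among them Col3a1 (DESeq2 adjusted p = 0.00831) and Col6a2 (DESeq2 adjusted p = 0.0264), and 18 in inhibitor (0.117%), with 0 of 8 collagen genes. Over the alternatives run in vehicle, the adjusted p ranged from 0.00831 to 1 for Col3a1 and from 0.0264 to 1 for Col6a2.

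By the labels the 2 libraries of a line are not independent for genotype, so counts were also summed per line and 3 KO lines were set against 3 WT lines. These sums joined a high and a low library in WT line 2 (1480 and 361 CPM of the 8 genes) and WT line 3 (155 and 991 CPM). The standard deviation of the mean log2 CPM was 0.45 over lines, against 0.93 within groups of libraries. The precision over line sums, in edgeR and in DESeq2, thus rests on the labelled pairing, and other pairings were not tested. All 8 genes were lower in KO, by a median log2 difference of -2.51 against 0.04 for all 16090 genes tested. The fitted differences were -2.96 ± 0.40 for Col1a1, -2.70 ± 0.41 for Col1a2 and -3.15 ± 0.32 for Col3a1. For type V they were -2.05 ± 0.30 (Col5a1) and -2.13 ± 0.39 (Col5a2). For type VI they were -1.17 ± 0.25 (Col6a1), -2.56 ± 0.45 (Col6a2) and -2.46 ± 0.43 (Col6a3). Expressed as folds, these run from 2.24-fold lower for Col6a1 to 8.88-fold lower for Col3a1.

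Over line sums, edgeR again called 0.00% of genes and 0 of 8, the smallest adjusted p of the 8 being 0.158 for Col3a1. All 8 had an unadjusted p below 0.05, against 1.67% of all genes that were lower at that level. Over the 12 single libraries, 2 of 8 genes (Col3a1 and Col6a3) had every KO library below every WT library, as did 0.503% of all genes. DESeq2 on the same line sums called 87 genes (0.541%) and all 8 collagen genes, with DESeq2 adjusted p from 5.47e-20 for Col3a1 to 0.00613 for Col6a1. Over all alternatives run on line sums, the adjusted p of Col3a1 ranged from 5.47e-20 to 0.767 and that of Col6a1 from 0.00613 to 1. Both tools estimated nearly the same differences, -3.15 and -3.16 for Col3a1. With 1 line left out at a time DESeq2 called 7 or 8 of the 8, and the gene lost in 3 of 6 cases was Col6a1. The median difference over line sums stayed between -2.77 and -2.18.

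**Figure D2:**
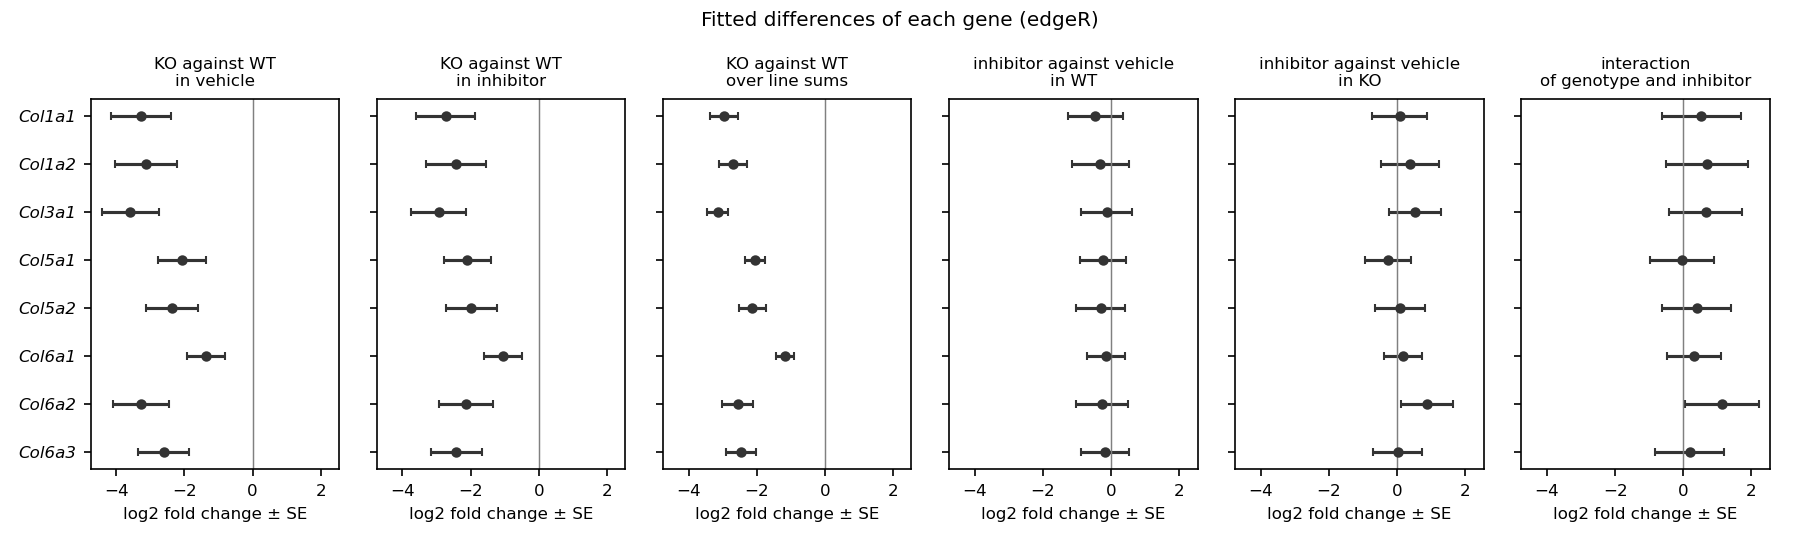
Fitted log2 differences of the 8 genes (points) with their standard errors (bars) in the 6 comparisons, from edgeR; the vertical grey line marks no difference. The 3 comparisons of KO with WT lie at -1.05 or below for all 8 genes, while the inhibitor's effects in WT and KO lie between -0.46 and 0.87.

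Exposure to the inhibitor was not followed by a common direction. Within a line, all 8 genes were lower with the inhibitor in WT line 1 (log2 ratios of -0.49 to -0.08) and in WT line 2 (-2.17 to -1.63). In WT line 3 all 8 were higher, by 2.12 to 3.03. For Col1a2 this meant 0.226 times the vehicle level in line 2 and 8.19 times in line 3. In KO line 1, 7 of 8 genes were higher (-0.04 to 0.63), and in KO line 2 also 7 of 8 (-0.10 to 1.86). In KO line 3, 6 of 8 were lower (-1.11 to 1.14), and its inhibitor library is the one that stood apart.

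The fitted effect of the inhibitor had a median of -0.25 over the 8 genes in WT and 0.13 in KO. In WT it ran from -0.46 ± 0.81 for Col1a1 to -0.13 ± 0.75 for Col3a1, and every gene had an edgeR adjusted p of 1. In KO it ran from -0.27 ± 0.67 for Col5a1 to 0.87 ± 0.77 for Col6a2, whose edgeR adjusted p of 0.546 was the lowest of the 8. The difference between the 2 effects (interaction) had a median of 0.46 and was largest for Col6a2, at 1.13 ± 1.08 (edgeR adjusted p = 0.808). All 3 tests called 0.00% of genes and 0 of 8, in edgeR and in DESeq2. At an unadjusted p below 0.05, edgeR had 47 genes for the inhibitor in WT, 1088 in KO and 185 for the interaction, with 0 of the 8 in each. With the cell line as a block, the median effect was 0.04 in WT, 0.35 in KO and 0.31 for the interaction. Without WT vehicle line 2 the WT median was 0.86 and the interaction -0.58. Leaving out WT inhibitor line 3 gave -0.90 in WT, and leaving out KO vehicle line 3 gave 0.98 in KO and 1.23 for the interaction.

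Across the 6 WT libraries the 8 genes kept nearly the same order of libraries. WT vehicle line 2 ranked highest, WT inhibitor line 3 after it, WT vehicle line 1 next and WT vehicle line 3 last for all 8, and only the inhibitor libraries of lines 1 and 2 exchanged places. Pearson's r of log2 CPM over these 6 libraries had a median of 0.984 over the 28 gene pairs (0.924 to 0.998), and Spearman's rho a median of 1.00. Without the 2 libraries farthest from the median the median r was 0.98. Across the 6 KO libraries the median r was 0.409, with a range of -0.804 (Col5a1 with Col6a1) to 0.968 (Col1a1 with Col5a2), and the median rho was 0.40. Without the 2 farthest libraries the KO median was 0.573.

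In KO, Col1a1, Col1a2, Col3a1 and Col5a2 still varied together: each had an r of 0.854 to 0.959 with the mean of the other 7. Col5a1 (0.272), Col6a2 (0.264) and Col6a3 (0.275) did so less, and Col6a1 had an r of -0.388, while in WT it had 0.989. The KO values of Col6a1 rest on a 1.33-fold range. Over all 12 libraries the median r was 0.931, which includes the difference between genotypes, and as deviations from group means it was 0.856. Over the 6 lines it was 0.96. The 12-library median was 0.948 without KO inhibitor line 3 and 0.902 without the 3 libraries highest on the first principal component. These are descriptions with no p-value, since the genes were chosen with them known, and the 2 libraries of a line share their cells of origin.

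**Figure D3:**
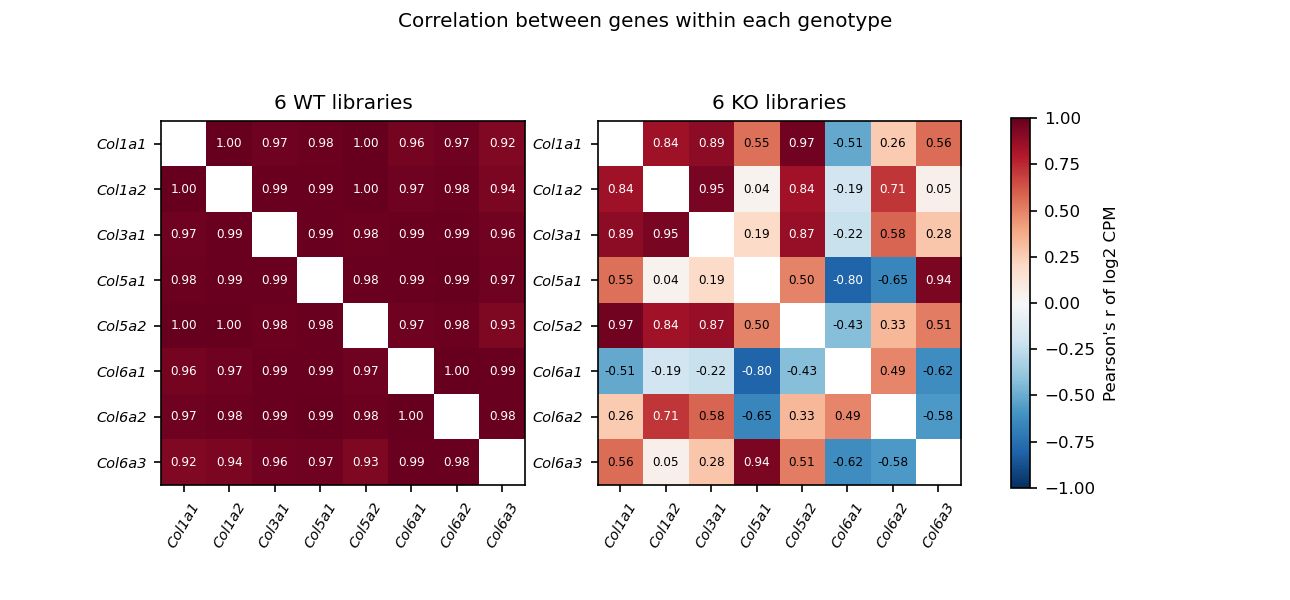
Pearson's r of log2 CPM between the 8 genes over the 6 WT libraries (left) and the 6 KO libraries (right); red is positive and blue negative. In WT all pairs are at 0.924 or above, and in KO the row of Col6a1 is negative with 6 of the 7 other genes.

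The ratio between chains of 1 collagen type was steadier in WT than in KO, on the scale of cRPKM ratios. Col1a1 over Col1a2 was 1.56 to 1.99 in WT and 0.973 to 2.51 in KO, the lowest being KO inhibitor line 3 and the highest KO vehicle line 2. Col5a1 over Col5a2 was 5.28 to 7.40 in WT and 4.29 to 13.8 in KO. Col6a1 over Col6a2 was 1.59 to 2.63 in WT and 2.88 to 11.5 in KO, so the genotypes did not overlap. Col6a1 over Col6a3 was likewise 4.83 to 6.19 in WT and 7.02 to 23.3 in KO. Its highest value was KO inhibitor line 3, and the other 5 KO libraries were also above all WT libraries. Col6a2 over Col6a3 overlapped, at 1.84 to 3.08 in WT and 1.05 to 8.09 in KO. The denominators in KO were low, 0.15 cRPKM for Col5a2 in KO vehicle line 1 for example, and no test was made of these ratios.

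**Figure D4:**
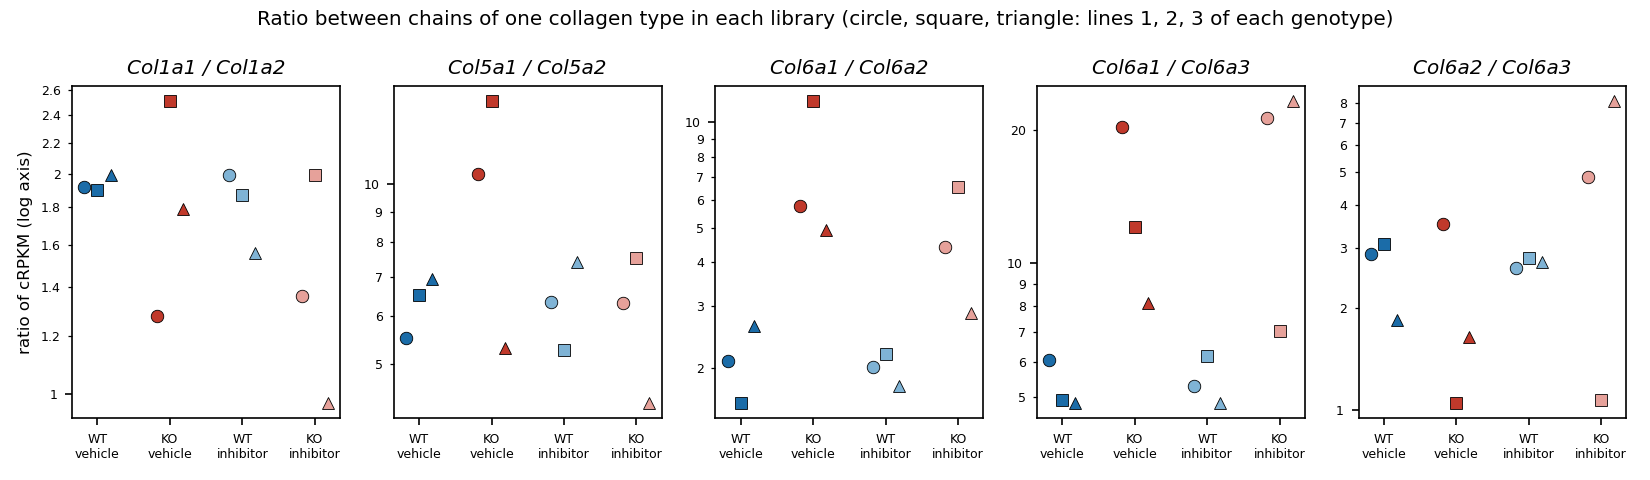
Ratio of cRPKM between 2 chains of the same collagen type (vertical log axis) in each library by group; symbols mark lines 1 to 3 of each genotype. The WT points of Col6a1 over Col6a3 lie between 4.83 and 6.19, below all KO points.

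The genes whose log2 CPM was most like the mean of the 8 over 12 libraries, out of 13416 compared, were Thbs2 (r = 0.99), Emilin1, Mmp2, Dcn, Mrc2, Cpz, Lum, Sod3, Lox and Bgn (r = 0.969). Dcn, which encodes the fibril-binding proteoglycan decorin, had 5.26 to 44.2 CPM in WT and 1.38 to 4.71 CPM in KO. Lox, the enzyme that starts collagen crosslinks, had 3.00 to 68.9 CPM in WT and 1.12 to 6.16 CPM in KO. Mmp2, a gelatinase, had 5.26 to 43.9 CPM and 2.29 to 5.66 CPM. Thbs2, a matrix thrombospondin, had 4.15 to 46.5 CPM and 2.03 to 5.22 CPM. Over the 6 KO libraries alone the r of the 10 genes ran from 0.6 (Lum) to 0.931 (Thbs2).

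Of the 5 other fibrillar collagens, 3 were higher and 2 lower in KO vehicle, with a median log2 difference of 0.31 (-0.09 without WT vehicle line 2). In inhibitor 2 were higher and 3 lower, with a median of -0.75, which was also the value without KO inhibitor line 3. Col11a1, the most abundant, had 0.49 ± 0.44 in vehicle and -0.75 ± 0.44 in inhibitor, and Col11a2, its partner in cartilage fibrils, 0.31 ± 0.55 and -1.03 ± 0.55. The 3 other type VI chains had a median of -0.48 in vehicle and -1.19 in inhibitor. Without KO inhibitor line 3 the latter was -2.67, where the 8 genes had -2.34. These chains were at levels of at most 1.52 CPM for Col6a6 and 0.562 CPM for Col6a4. Of 8 tested fibril-associated collagens, 7 were lower in vehicle, with a median of -0.15 (-0.23 without WT vehicle line 2), and the inhibitor median of -0.18 was -0.33 without WT inhibitor line 3 and -0.92 without KO inhibitor line 3. Col12a1, which coats fibrils, had -1.77 ± 0.49 in vehicle and -1.35 ± 0.48 in inhibitor, and Col16a1 had -0.17 ± 0.28 and -0.91 ± 0.29. Of 14 network and transmembrane collagens, 12 were lower in vehicle (median -0.72, and -0.3 without WT vehicle line 2) and 7 in inhibitor (median 0.03, 0 without WT inhibitor line 3 and -0.36 without KO inhibitor line 3). The 2 most abundant of them, the basement membrane chains Col4a1 and Col4a2, had -2.60 ± 1.57 and -2.33 ± 1.41 in vehicle, beside -2.07 for Col5a1 and -2.37 for Col5a2. In inhibitor, with KO inhibitor line 3 included, Col4a1 and Col4a2 were higher in KO, at 1.91 ± 1.53 and 1.84 ± 1.38. Col5a1 and Col5a2 had -2.10 and -1.98 there. Over line sums Col4a1 and Col4a2 had 0.92 ± 1.41 and 0.85 ± 1.28, beside -2.05 and -2.13 for Col5a1 and Col5a2.

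The machinery that makes, trims and binds collagen was also set beside the 8 genes. The 18 biosynthesis enzymes and chaperones were all lower in KO vehicle, with a median of -1.09, which was -0.12 without WT vehicle line 2. Their summed level was 4270 CPM in that library, while the other 2 WT vehicle libraries, at 1080 and 844 CPM, lay within the KO vehicle range of 614 to 1450 CPM. In inhibitor 16 of 18 were higher in KO, with a median of 0.91, which was 1.44 without WT inhibitor line 3 and -0.78 without KO inhibitor line 3. The chaperone Serpinh1 (Hsp47) had -1.90 ± 1.5 in vehicle, and P4hb, a subunit of prolyl 4-hydroxylase, -1.07 ± 0.89. In inhibitor, with KO inhibitor line 3 included, Serpinh1 and P4hb had 1.30 ± 1.47 and 1.05 ± 0.89. Of 13 processing and crosslinking genes 12 were lower in vehicle (median -1.46, and -0.58 without WT vehicle line 2) and 10 in inhibitor (median -0.99, and -1.53 without KO inhibitor line 3). Among them Loxl2, a lysyl oxidase, had -2.33 ± 1.14 in vehicle and 0.01 ± 1.09 in inhibitor. The procollagen C-proteinase Bmp1 had -0.46 ± 0.56 and 0.02 ± 0.56. Of 10 tested collagen receptors, 9 were lower in vehicle (median -1.77, and -1.04 without WT vehicle line 2) and 8 in inhibitor (median -0.95, -0.61 without WT inhibitor line 3 and -1.52 without KO inhibitor line 3). Itgb1, the integrin beta chain of collagen receptors, had -1.34 ± 0.91 in vehicle and 0.62 ± 0.89 in inhibitor. Ddr1, a receptor kinase for collagen, had -0.21 ± 0.40 and 0.54 ± 0.40.

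Of 7 tested genes of collagen degradation, 6 were lower in vehicle (median -1.69, and -0.37 without WT vehicle line 2) and 3 in inhibitor (median 0.05, 0.1 without WT inhibitor line 3 and -1.28 without KO inhibitor line 3). The inhibitors of metalloproteinases Timp2 and Timp3 had -0.06 ± 0.15 and -1.74 ± 0.92 in vehicle, and 0.05 ± 0.15 and 0.73 ± 0.89 in inhibitor. Of 18 genes of TGF-beta signalling and collagen transcription, 15 were lower in vehicle (median -0.33, and 0 without WT vehicle line 2) and 2 in inhibitor (median 0.49, and -0.19 without KO inhibitor line 3). Their summed level in vehicle was 1080 CPM in WT line 2, with the other WT libraries at 330 and 297 CPM and the KO libraries at 276 to 387 CPM. Ccn2, a matricellular target of TGF-beta, had -2.17 ± 1.53 in vehicle, and Smad4, the shared mediator, -0.27 ± 0.42. In inhibitor, with KO inhibitor line 3 included, Ccn2 and Smad4 had 2.13 ± 1.53 and 0.57 ± 0.42. Of the 96 tested genes of these lists, other collagens included, edgeR called 0 in all 6 comparisons. DESeq2 called Itga11 in vehicle, Adamts2 and Ddr2 in inhibitor, and 13 over line sums. Of all genes tested it called 0.0712%, 0.117% and 0.541%. The lists were chosen with earlier results of these data known, so these counts only describe them. Lower over line sums were Col12a1, Col18a1, Pcolce, Adamts2, Adamts14, Lox, Loxl1, Itga11, Ddr2, Antxr2, Mrc2 and Mmp2, and Col25a1 was higher. DESeq2 called 0 of the 96 in the other 3 comparisons.

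In KO inhibitor line 3 the lists went different ways. The type IV chains Col4a1 and Col4a2 reached 14900 and 8050 CPM, against at most 4850 and 2790 CPM in WT and 1200 and 679 CPM in the other KO libraries. Serpinh1 stood at 3430 CPM (at most 1070 CPM elsewhere), P4hb at 2550 CPM (at most 959) and Ccn2 at 2000 CPM (at most 565). In all, 15 of 18 biosynthesis genes and 14 of 18 TGF-beta genes were at their highest there, as were 38.4% of all 15443 genes tested and 0 of the 8 fibrillar and type VI genes. The same held for 2 of 13 processing genes, 3 of 11 receptors, 1 of 5 other fibrillar collagens and 0 of 3 other type VI chains. The 8 genes summed to 117 CPM in that library, the 9th highest of 12.

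**Figure D5:**
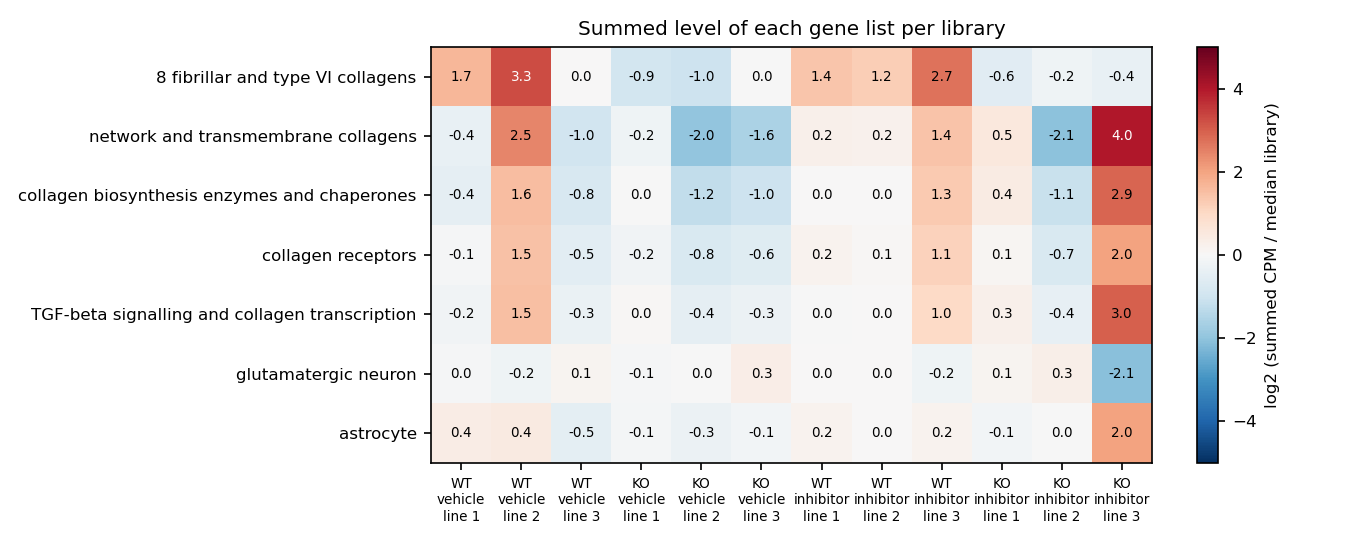
Summed CPM of the 8 genes and of 6 other gene lists in each library, as log2 over the median library (red higher, blue lower); lists have different numbers of genes. KO inhibitor line 3, the last column, is the darkest red for network collagens and biosynthesis genes, while the row of the 8 genes is highest in WT vehicle line 2.

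Markers of other cell types were also set beside the 8 genes, and their part in the difference was not tested. All 13 tested fibroblast and mesenchymal markers (of 14) were lower in KO vehicle, with a median of -1.74 (-0.63 without WT vehicle line 2). In inhibitor 9 of 13 were, with a median of -0.41, which was -0.21 without WT inhibitor line 3 and -1.72 without KO inhibitor line 3. Their summed level was 55.1 to 416 CPM in WT vehicle, 28.6 to 56.1 in KO vehicle, 120 to 293 in WT inhibitor and 37.5 to 605 in KO inhibitor, where line 3 gave the 605. Pdgfra, a receptor of mesenchymal and oligodendrocyte precursor cells, held 509 CPM of it, and Postn (periostin) 1.97 CPM. Outside that library Pdgfra was 10.9 to 152 CPM in WT and 2.28 to 50.5 CPM in KO, and Postn 15.7 to 90.9 and 4.83 to 16.2 CPM. Dcn and Lum had fitted differences of -2.90 ± 0.76 and -2.85 ± 0.86 in vehicle.

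Leptomeningeal markers summed to 169 to 197 CPM in WT vehicle and 130 to 217 CPM in KO vehicle, nearly all of it Zic1, which other neural cells express too (-0.07 ± 0.24). Taken gene by gene, all 5 tested markers were lower in KO vehicle, with a median of -1.70 (-1.22 without WT vehicle line 2). In inhibitor the median was -0.84, which was -0.46 without WT inhibitor line 3 and -1.89 without KO inhibitor line 3. Ogn (osteoglycin) had -4.73 ± 1.40 in vehicle and -2.27 ± 1.22 in inhibitor, at 0.0865 to 0.406 CPM in the KO libraries without inhibitor line 3. Smooth muscle and pericyte markers summed to 8.23 to 108 CPM in WT vehicle and 5.62 to 12.4 CPM in KO vehicle. Of the 8 tested, 6 were lower and 2 higher in KO vehicle, with a median of -0.55 (-0.49 without WT vehicle line 2). The most abundant, Acta2 and Tagln, were also the most negative, at -3.09 ± 1.33 and -3.17 ± 1.35 in vehicle. In inhibitor they had -0.58 ± 1.22 and -0.08 ± 1.23. Rgs5 had -0.61 ± 0.44 and Cnn1 0.20 ± 0.20 in vehicle. Endothelial markers summed to 9.73 to 66.0 CPM in WT vehicle and 3.46 to 13.4 CPM in KO vehicle. Cdh5 and Tek had -2.64 ± 1.36 and -2.21 ± 1.61 in vehicle, and 0.31 ± 1.26 and 1.16 ± 1.54 in inhibitor. The endothelial tight junction gene Cldn5 was at 0 in all 12 libraries. The 108 and 66.0 CPM were those of WT vehicle line 2, and the other 2 WT vehicle libraries had at most 23.5 CPM of smooth muscle and 10.3 CPM of endothelial markers.

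The bone genes Bglap and Ibsp were at 0 throughout, and the list of cartilage and bone summed to 7.61 to 13.4 CPM in WT vehicle and 8.74 to 10.8 CPM in KO vehicle. Its leading genes Sox9 and Acan had -0.29 ± 0.73 and 0.19 ± 0.46. Tfap2a, a transcription factor of the neural crest, had 0.11 ± 0.39. The other genes of its list are not reported here and did not all share its direction, so this value stands for Tfap2a alone. Microglial markers summed to 0.718 to 10.0 and 0.649 to 1.57 CPM (Csf1r -2.29 ± 1.32, Tmem119 -2.46 ± 1.16), and WT vehicle line 2 gave the 10.0 CPM.

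Among neural lists in vehicle, the median log2 differences were 0.06 for 10 glutamatergic markers (Map2 0.11 ± 0.59, Grin1 0.21 ± 0.45) and 0.26 for 6 GABAergic markers (Gad1 0.37 ± 0.30, Gad2 0.35 ± 0.33). For astrocytes the median was -0.16 (Gfap -1.06 ± 0.86, Slc1a2 0.11 ± 0.27), and for neural progenitors it was -0.02 (Fabp7 0.07 ± 0.76, Mki67 -2.43 ± 1.52). Without WT vehicle line 2 these medians were -0.02, 0.22, 0.05 and 0.12. The 3 tested pluripotency markers had a median of -1.79, and 0.36 without WT vehicle line 2 (Esrrb 0.48 ± 0.56, Dppa5a -2.42 ± 1.07). No marker was called by edgeR at an adjusted p below 0.05. DESeq2 called 1 of 70 tested markers in inhibitor, Dcn, against 0.117% of all genes. Over line sums it called 5 of 72 (0.541% of all genes), namely Dcn, Lum, Pdgfrb, Postn and Thbs2. All were lower in KO and all are of the fibroblast list. Not all of that list went this way over line sums: Pdgfra (0.92 ± 1.40), Fbln1 (0.59 ± 0.84), Pi16 (0.39 ± 0.69) and Prrx1 (0.13 ± 0.82) were higher in KO.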

How the data were processed

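The study deposited 1 table per library with a raw read count and a cRPKM value for each of 36902 Ensembl genes, of which 3342 hold no value. Counts were deposited by the authors as raw reads per gene. The deposited cRPKM (RPKM corrected for mappable positions) is proportional, within a gene, to the count over the library total. The submitters' processing notes name the build mm10. The aligner, counter and annotation are not given in the sources used here. Per the labels, libraries were stranded and selected for polyA.

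Symbols were matched for 33371 of 33560 genes with counts. All 12 libraries were fitted together with edgeR 4.0.16 (R 4.3.3): filterByExpr, TMM scaling, a coefficient per group, robust quasi-likelihood F tests and Benjamini-Hochberg adjustment over all 15443 genes tested. All 8 collagen genes passed the filter. Counts summed per line were fitted alike (16090 genes). CPM values use TMM scaling, and log2 CPM a prior count of 2. Alternatives were library totals, DESeq2's size factors in edgeR, no filter, DESeq2 1.42.0, limma 3.58.1 on log2(cRPKM + 0.1), only the groups compared, leaving out each library, and a block. The block was the cell line for the inhibitor's effects. For KO against WT it was the replicate number, which sets different lines side by side. Tested on simulated data with the real means and library sizes for KO against WT in vehicle, the edgeR fit of 15443 genes called 24%, 76%, 92% and 96% of genes changed by 1, 2, 3 and 4 on the log2 scale, with 4 false calls. These rates do not carry over to genes as variable as the 8. In WT vehicle the standard deviation of Col6a2 was 105% of its mean. Col3a1, with a fitted -3.59 in vehicle, had an edgeR adjusted p of 0.999.

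The labels tie 1 vehicle and 1 inhibitor library to each cell line. Deviations from group means correlated within WT lines 1, 2 and 3 at 0.411, -0.553 and -0.723, and within KO lines at -0.191, 0.574 and -0.373. Between different lines of a genotype they ran from -0.62 to 0.729 in WT and from -0.749 to 0.645 in KO. Libraries of the same line were thus not consistently more alike than those of different lines, and the pairing rests on the labels.

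The 8 genes and all gene lists were chosen with earlier results of these data known. From each list the 2 genes with the highest mean CPM were named, with any list gene called and the 10 genes most like the mean of the 8. Other named genes (Dcn, Lum, Lox, Mmp2, Slc17a6, Slc17a7, Cldn5, Bglap and Ibsp where a list is described) were chosen after their values were seen. Col21a1 of the fibril-associated list had no match. A list of markers of another cell type is not reported here.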

Additional observations from a re-analysis of the deposited data

How the results depend on the processing

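For KO against WT, the direction of all 8 genes was the same under every alternative run: in vehicle 158 of 160 values stayed on the same side of the adjusted threshold (the other 2 were DESeq2's calls of Col3a1 and Col6a2), in inhibitor 160 of 160, and over line sums 88 of 96, the other 8 being DESeq2's calls. DESeq2 called 11 genes in vehicle, 2 of them collagen genes, 18 in inhibitor, and 87 over line sums with 8 collagen genes, where edgeR called 0. Without a low-count filter edgeR called 2 genes over line sums. With 1 line left out, DESeq2 called 56 to 629 genes over line sums, the 629 without KO line 3. Alternatives added after seeing the data left out the 3 libraries highest on the first principal component: edgeR then called 2 genes in vehicle and 1 in inhibitor, none of them a collagen gene, and the vehicle median of the 8 was -1.67. Leaving out 1 library gave vehicle medians of -3.32 to -1.68, the latter without WT vehicle line 2.

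The direction of the inhibitor's effect depended on single libraries. Leaving out 1 library moved the median from -0.90 to 0.86 in WT and from -0.58 to 1.23 for the interaction. In WT the ranges were -0.96 to 0.76 for Col1a1, -0.92 to 0.93 for Col1a2, -0.94 to 0.90 for Col3a1, -0.83 to 0.84 for Col5a1, -0.77 to 0.67 for Col5a2, -0.73 to 0.78 for Col6a1, -0.98 to 1.01 for Col6a2 and -0.89 to 0.88 for Col6a3. In KO they were -0.27 to 1.02 for Col1a1, -0.04 to 1.24 for Col1a2, -0.21 to 0.94 for Col5a2 and -0.63 to 0.28 for Col6a3. For the interaction they were -0.68 to 1.47 (Col1a1), -0.53 to 1.55 (Col1a2), -0.35 to 1.47 (Col3a1), -1.10 to 0.56 (Col5a1), -0.57 to 1.24 (Col5a2), -0.59 to 0.90 (Col6a1), -0.13 to 1.85 (Col6a2) and -0.85 to 0.91 (Col6a3).

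limma on log2(cRPKM + 0.1) reversed the effect in WT to 0.10, 0.20, 0.14, 0.09, 0.05, 0.06, 0.11 and 0.01 for Col1a1, Col1a2, Col3a1, Col5a1, Col5a2, Col6a1, Col6a2 and Col6a3, and for Col6a3 the effect in KO to -0.03 and the interaction to -0.03. Pairing by cell line (replicate block) reversed it in WT to 0.04, 0.10, 0.01, 0.06, 0.04, 0.03, 0.05 and 0.01 in the same order, and for Col6a3 to -0.07 in KO and -0.08 for the interaction. Without the 3 libraries highest on the first principal component the direction also reversed, in WT to 0.33 for Col1a1, 0.33 for Col1a2, 0.10 for Col3a1, 0.26 for Col5a1, 0.28 for Col5a2, 0.21 for Col6a1, 0.31 for Col6a2 and 0.17 for Col6a3, and for the interaction to -0.15 for Col1a1, -0.11 for Col1a2, -0.21 for Col5a2 and -0.05 for Col6a1. Without a filter the interaction of Col5a1 was 0.01. The replicate block changed no call. The cause of these reversals was not tested. The mean log2 CPM of the 8 genes had a standard deviation of 0.93 within groups, and the gene with the fewest reads, Col5a2, rested on at least 25 counts.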
